A study of Mus musculus with 13 samples.

Results

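Chromatin regions called open in both the distal and the proximal forelimb, and absent from the strongest forebrain regions, were described in mouse embryos at E12.5. The assay was ATAC-seq, in which the Tn5 transposase inserts sequencing adapters where DNA is accessible, and open regions were called in each library by the authors. In every library the 50000 strongest regions on chromosomes 1 to 19 were kept, with chromosome 2 only below 75 Mb, and the lists were merged into 112414 regions. A merged region was chosen when it was overlapped in all 8 forelimb lists and in none of the 4 forebrain lists, which held for 5407 regions (4.81% of all). These are called pan-limb regions here. They made up 21.0% of the 25792 regions found in all 8 forelimb lists, of which 18691 were also in all 4 forebrain lists. Because limb and forebrain calls chose them, their difference from forebrain is a description and was not tested.

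The embryos were of the B6CBAF1 background. Both wild type (wt) and allele 542 were represented by the distal part of the forelimb (DFL), its proximal part (PFL) and the forebrain (FB). Each of these 6 groups had 2 replicates, and each library came from 50000 cells of pooled tissue of several embryos. Allele 542 goes back to 1 founder line and carries a single further copy of II1, a distal limb enhancer of the HoxD locus, placed on chromosome 2 on the other side of the gene cluster before an HBB promoter and a LacZ reporter. The study describes the embryos with the insertion as homozygous. Reads of 542 were aligned to a genome with the insertion and wt reads to mm10, so that genotype and mapping genome cannot be told apart. A thirteenth library, an earlier wt DFL sample, took no part in the choice.

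Tags under each summit (read ends extended to 200 bp) and their local background were recovered from the deposited values. Depth was estimated from the most common background of a library, scaled to the genome size. It was 37.5 to 54.5 M tags (M for mega) in the forelimb libraries and 51.4 to 70.7 M in forebrain. The tissue labels were compared with open chromatin at marker gene starts, within 1 kb and among all deposited regions. At Hoxa13, a distal limb factor, the mean fold over background was 9.29 in DFL, 5.51 in PFL and 0.701 in FB, with libraries without a region counted as 0. At Twist1, a mesenchymal factor, it was 10.7, 10.1 and 4.88, whereas at Prrx1 and Msx1, of the same marker list, it was highest in FB, at 7.25 and 8.73 against 5.38 and 6.98 in DFL and 4.80 and 7.54 in PFL. The summed fold over all 5 mesenchyme markers was 27.0 to 31.3 in DFL, 24.7 to 36.9 in PFL and 21.4 to 25.5 in FB. The proximal limb markers Meis1 and Shox2 did not mark PFL, with sums of 7.20 to 10.1, 6.72 to 10.4 and 8.85 to 12.7. The start of Emx2, a factor of the dorsal forebrain that is also on the list of proximal limb factors, was open in all libraries, with mean folds of 5.17, 5.56 and 7.65, so that open starts separated the tissues at some markers and not at others.

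Enhancers are stretches of DNA, often far from the genes they act on, that raise transcription in particular cells when transcription factors bind them and the chromatin opens. In the early limb bud most cells are mesenchyme, which gives rise to cartilage, tendon and connective tissue, while muscle, vessel and blood cells enter from elsewhere and ectoderm covers the surface. HOX13 proteins pattern the distal part, the future hand, and MEIS factors mark the proximal part. TWIST, TEAD and RUNX factors act in mesenchyme and skeletal precursors. POU, SOX and LIM-homeobox factors are prominent in neural cells, but not only there. Of the gene lists used below, that of cartilage and joint holds Sox5, Sox6 and Sox9, and that of distal limb factors holds Lhx2.

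A selection of sequences is shown to make the regions concrete, each of 201 bases centred on the median summit, from the plus strand of GRCm38 (RefSeq). They are the members with the first and the third highest mean fold, the largest difference in each direction between DFL and PFL together with the next largest in DFL, and the strongest member inside an enhancer active in limb. Capitals mark the letters CAATAAA (HOX13), TAATTA (homeobox), CATCTG (TWIST E-box), CAGCTG (another E-box) or GGAATG (TEAD) on either strand. Matches of different motifs may overlap, and a match is a description of letters and no proof of binding.
Nphp4 region, chr4:152799529-152799729: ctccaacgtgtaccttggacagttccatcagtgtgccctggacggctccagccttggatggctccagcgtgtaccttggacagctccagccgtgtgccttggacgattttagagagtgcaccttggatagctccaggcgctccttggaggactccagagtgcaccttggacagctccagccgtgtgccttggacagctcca
St14 region, chr9:31118623-31118823: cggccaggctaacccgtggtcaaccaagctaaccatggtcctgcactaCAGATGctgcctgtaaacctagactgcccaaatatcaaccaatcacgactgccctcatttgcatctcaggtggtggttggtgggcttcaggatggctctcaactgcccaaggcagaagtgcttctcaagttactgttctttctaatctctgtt
Eya4 region, chr10:23532443-23532643: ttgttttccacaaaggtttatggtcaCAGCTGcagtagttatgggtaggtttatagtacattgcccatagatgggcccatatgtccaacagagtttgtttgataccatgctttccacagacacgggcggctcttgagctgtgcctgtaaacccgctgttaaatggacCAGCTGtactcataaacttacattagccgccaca
Ndst4 region, chr3:125744877-125745077: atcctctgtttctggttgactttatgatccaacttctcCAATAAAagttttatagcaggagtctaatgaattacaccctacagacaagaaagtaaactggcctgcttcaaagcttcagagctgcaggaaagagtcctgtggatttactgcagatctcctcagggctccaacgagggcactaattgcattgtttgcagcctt
Zeb2 region, chr2:46187357-46187557: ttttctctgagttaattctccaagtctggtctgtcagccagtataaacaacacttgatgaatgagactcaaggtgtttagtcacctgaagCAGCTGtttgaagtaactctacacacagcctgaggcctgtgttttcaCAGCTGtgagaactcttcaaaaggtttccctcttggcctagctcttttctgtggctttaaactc
mm703 region, chr15:35533308-35533508: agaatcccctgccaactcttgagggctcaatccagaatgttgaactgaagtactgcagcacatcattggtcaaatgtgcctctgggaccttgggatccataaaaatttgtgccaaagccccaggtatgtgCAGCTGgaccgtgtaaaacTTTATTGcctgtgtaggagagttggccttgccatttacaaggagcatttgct
The Nphp4 window held none of these motifs and was made of repeated units, with 1 run of 8 letters present 5 times. The Ndst4 region, higher in DFL, held 1 HOX13 match, and the Zeb2 region, higher in PFL, held 2 matches of CAGCTG. The Eya4 region, with the largest difference towards DFL, held no HOX13 match and 2 matches of CAGCTG. The next PFL-higher region in order (nearest gene Isl1) and the second limb enhancer (mm938) held no match of the motifs listed.

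The strength of pan-limb regions was given by the fold, which is the number of tags at the summit plus 1 over the tags of the local background plus 1 in that library. Their mean fold over the 8 forelimb libraries ran from 2.73 to 19.1 with a median of 7.69. The median by library lay between 7.14 (542 PFL replicate 2) and 8.05 (wt DFL replicate 1), and the median member stood at the 57.7th to 60.9th percentile of each list. They were thus of middle rank in each forelimb list. The median width was 952 bp, and the summits of a member lay within a median range of 83 bp across the 8 libraries.

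**Figure D1:**
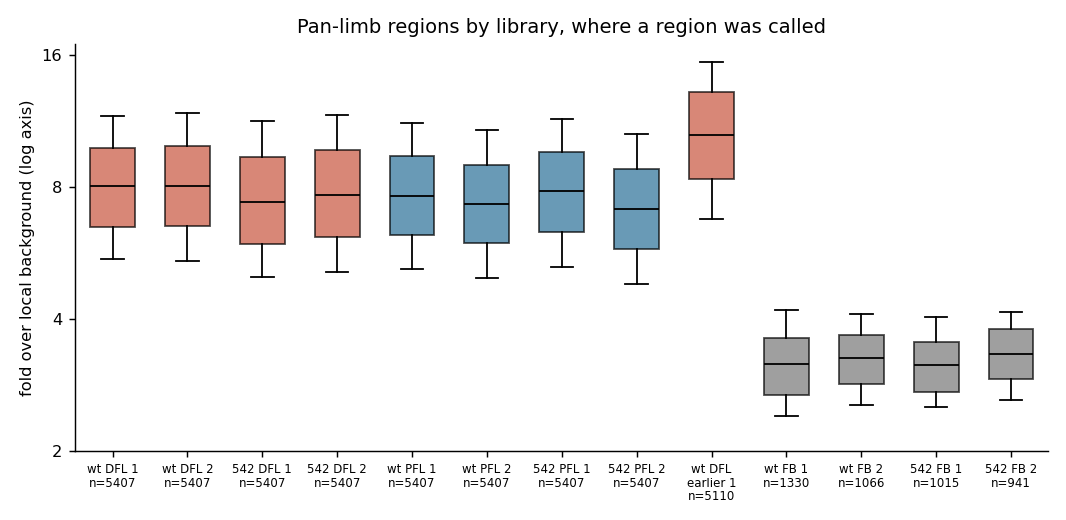
Fold over local background (log axis) of the pan-limb regions in each library, with boxes from the lower to the upper quartile, the median as a line and whiskers at the 10th and 90th percentiles. Red boxes are DFL, blue PFL and grey FB, where only the members called at any rank enter (n under each name), and forelimb medians of 7.14 to 8.05 stand above forebrain medians of 3.14 to 3.33. The choice of members largely sets this gap.

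Absence from a forebrain list did not always mean absence of a call. Among all deposited forebrain regions, whatever their rank, 3459 members (64.0%) had no overlapping region in any of the 4 FB libraries. Weaker regions were found in 1 FB library for 670 members, in 2 for 509, in 3 for 412 and in all 4 for 357. The 1948 members with any forebrain region had a median highest forebrain fold of 3.40 against a median mean limb fold of 7.72, and in 1917 of them the lowest forelimb fold was above the highest forebrain fold. The rule put members inside every forelimb list and outside every forebrain list, so this order largely follows from the choice. The highest forebrain fold of a member was 4.79, which is also the last fold inside the list of wt FB replicate 1. The limb fold hardly differed between members with and without a weak forebrain region, at medians of 7.72 and 7.68. In bulk tissue, fewer cells with an open region and less opening per cell cannot be told apart.

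Members just inside and just outside the list border show how the threshold acted. The weakest members by rank were regions nearest to Eya1, Gm5269 and Cblb, with a lowest rank of 49996, 49996 and 49991 among 50000. Their mean folds were 4.97, 5.75 and 5.02. Just outside lay regions nearest to Gm12169, Cnksr3 and Gsdmc, found in 7 forelimb lists and no forebrain list, which ranked 50011, 50011 and 50012 in the eighth library. In all, 2338 regions were in 7 forelimb lists and no forebrain list.

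The earlier wt DFL library offers a look at the members in data the choice did not use. Of the 5407 members, 5110 (94.5%) were among its 50000 strongest regions and 5403 (99.9%) among all its regions. For comparison, its strongest regions overlapped 96.8% of the 25792 regions in all 8 forelimb lists, 41.7% of all merged regions and 1.77% of the 9793 regions found in all 4 forebrain lists and no forelimb list (forebrain-only regions). The median fold of the members it held was 10.5. This library is of the same tissue and genotype as 2 of the libraries used and was the deepest, at 78.0 M tags.

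Pan-limb regions lay mostly away from gene starts. By GENCODE M21, 2899 (53.6%) were intergenic, 2287 (42.3%) intronic and 71 (1.31%) exonic, and 150 (2.77%) were within 1 kb of a coding start, against 12.1% of all merged regions and 56.5% of the 18691 regions in all 12 lists. The median distance to the nearest coding start was 73528 bp, against 49696 bp for all merged regions and 92040 bp for forebrain-only regions. Beyond 100 kb lay 41.7% of members and 34.5% of all regions. The G and C content around summits had a median of 47.3%, against 61.2% in regions of all 12 lists and 45.8% in forebrain-only regions. Members and forebrain-only regions thus resembled each other in position and base composition more than either resembled regions open in every library.

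The 10 strongest members by mean fold were led by 1 outside genes and 315259 bp from the Nphp4 start, which encodes a protein of the primary cilium. It stood at 20.2 and 19.7 in wt DFL, 23.4 and 17.0 in 542 DFL, 19.5 and 19.1 in wt PFL, and 18.4 and 15.4 in 542 PFL, and a weak region was called in all 4 FB libraries at 2.27 to 4.62. This is the region whose sequence was made of repeated units. An intron of St14, the gene of the membrane protease matriptase, held a member with a mean fold of 18.4 ± 1.65 (SD, n = 8). An intergenic member nearest to Adgrl3, an adhesion receptor of the latrophilin family, varied least of the 10, at 16.5 ± 0.518 (SD, n = 8), and had no forebrain region at any rank. The others were nearest to Fgf23, Arhgap18 (inside an intron of the laminin gene Lama2), Glt8d2, Prkar2b, Vmn2r73, Nr6a1 and Vgll3, a cofactor of TEAD proteins, with mean folds of 16.4 to 18.8. None of the 10 differed between DFL and PFL at an adjusted p under 0.05 in the limma fit described below.

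Few members were promoters, and the strongest of them belonged to genes of varied roles. The promoter of Fgf23, the hormone that lowers blood phosphate, had folds of 14.6 and 23.2 in wt DFL, 21.9 and 20.6 in 542 DFL, 19.6 and 15.8 in wt PFL, and 18.2 and 16.2 in 542 PFL. That of Slc16a4, a monocarboxylate transporter family gene, had a mean of 16.0 ± 1.31 (SD, n = 8) and no forebrain region. Promoters of Lmod1 (an actin nucleator of smooth muscle), Galnt5 (a glycosyltransferase of mucin-type sugars) and Islr (a mesenchymal leucine-rich repeat protein) followed at 14.7, 13.2 and 13.0. Of the 10 strongest promoters, Gstm2, a glutathione transferase, differed by tissue, with folds of 12.3 to 17.8 in DFL and 8.36 to 10.3 in PFL. The groups did not overlap, and the log2 difference was 0.58 (SE 0.12, adjusted p = 0.0252).

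Openness in DFL and PFL was compared next, a contrast within the forelimb on which the choice of members did not rest, although a region lost from a forelimb list could not be a member. The log2 fold, centred on the median of each library, was fitted with limma over the 25792 regions in all 8 forelimb lists, with tissue and genotype as terms, and p-values were adjusted over all of them by the Benjamini-Hochberg method. Of 5407 members, 470 (8.69%) were higher in DFL, where 3.54% of all regions tested were, and 392 (7.25%) were higher in PFL, where 2.83% of all regions tested were. In either direction 15.9% of members were called, against 3.21% of the regions open in all 12 libraries, of which 56.5% were promoters. Of the 20385 non-members in all 8 forelimb lists 781 were called, and 600 of these calls were among the 18691 regions of all 12 lists. The remaining non-members were 552, 506 and 636 regions in 1, 2 and 3 forebrain lists. They held all the other calls, a share far above 3.21%, so frequent calls were not particular to members. The SD of the log2 difference was 0.34 among members and 0.19 among regions of all 12 libraries. No test of that contrast between region sets was made.

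The median log2 difference over members was 0.00, and called members ranged in size from 0.30 to 1.23 towards DFL and from -0.30 to -1.19 towards PFL. In 436 of the 470 members higher in DFL all DFL folds were above all PFL folds, and in 287 of the 392 higher in PFL the reverse held. These folds were not centred, so the counts for DFL and for PFL cannot be set against each other. The members had been called on the same libraries, so separation largely follows from the calls. It was not counted over all regions tested. When the fit was run without centring, 570 and 254 members were called, so that 69.2% of calls were towards DFL instead of 54.5%. With recovered tags scaled to depth in place of fold, 1034 and 965 members were called. Leaving out any 1 of the 8 forelimb libraries gave 253 to 312 members higher in DFL and 225 to 265 higher in PFL.

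**Figure D2:**
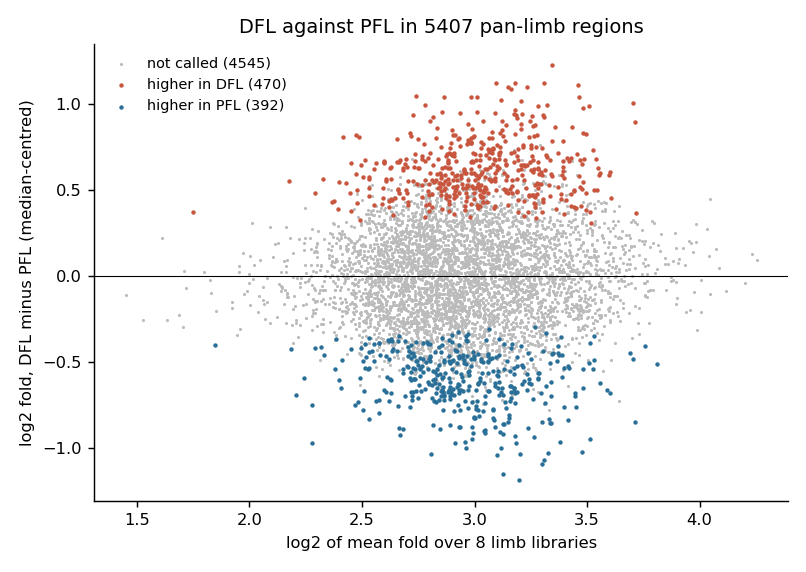
Log2 difference of DFL minus PFL (median-centred, y axis) against the log2 of the mean fold over 8 forelimb libraries (x axis), 1 point per pan-limb region. Red points are the 470 regions higher in DFL, blue points the 392 higher in PFL and grey points the 4545 not called at an adjusted p under 0.05, and calls occur across most of the range of mean fold.

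Among members higher in DFL, the largest difference lay outside genes, 181757 bp from the Eya4 start (chr10:23531962-23533230), a transcriptional coactivator with phosphatase activity. Its fold was 14.4 and 15.2 in wt DFL, 14.6 and 13.4 in 542 DFL, 5.63 and 6.48 in wt PFL, and 6.14 and 5.39 in 542 PFL. Every DFL value was above every PFL value, and the log2 difference was 1.23 (SE 0.08, adjusted p = 0.0019). No forebrain region was called there at any rank, and the earlier wt DFL library had 15.7.

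The second, near Ndst4 (chr3:125744412-125745508), a heparan sulphate modifying enzyme, had folds of 12.1 to 14.8 in DFL and 4.75 to 6.78 in PFL (log2 difference 1.12, SE 0.15, adjusted p = 0.00561). A region 398113 bp from Irx1 (chr13:71565090-71566331), an Iroquois homeobox gene, had folds of 12.7 and 12.1 in wt DFL, 12.6 and 11.4 in 542 DFL, 5.95 and 4.98 in wt PFL, and 6.34 and 4.79 in 542 PFL. It lay inside the noncoding gene 1700112M02Rik, and the log2 difference was 1.10 (SE 0.09, adjusted p = 0.0019). The region nearest to Nr2f2, which encodes the nuclear receptor COUP-TFII, ranged from 10.7 to 13.5 in DFL and from 4.59 to 7.52 in PFL, with a log2 difference of 1.09. The other regions among the 10 largest, nearest to Klf12, Alg10b, Tarsl2, Plcxd3, Farp1 and Peli2, had log2 differences of 1.04 to 1.12. In none of the 10 did the groups overlap, which their choice as the largest called differences largely sets. At the Plcxd3 region weak forebrain regions were called in all 4 FB libraries, at 2.98 to 3.54.

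Towards PFL, the largest difference lay also outside genes, 1070062 bp from the Zeb2 start (chr2:46187207-46188069), the gene of a zinc finger repressor. Its fold was 6.93 and 4.83 in wt DFL, 5.11 and 6.18 in 542 DFL, 12.8 and 10.4 in wt PFL, and 14.9 and 12.1 in 542 PFL. PFL values were all higher, and the log2 difference was -1.19 (SE 0.13, adjusted p = 0.00388). The name gives the nearest coding start only, here at more than 1 Mb.

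The region 473018 bp from Isl1 (chr13:115835907-115836918), a LIM-homeobox factor, had folds of 4.56 to 7.53 in DFL and 9.70 to 13.3 in PFL (log2 difference -1.15, SE 0.16, adjusted p = 0.00657). The region 96516 bp from Spry2 (chr14:105992945-105993762), an inhibitor of Fgf signalling, had 6.56 ± 0.375 in DFL and 13.2 ± 0.81 in PFL (SD, n = 4 each), and the groups did not overlap. With a log2 difference of -1.07 (SE 0.07, adjusted p = 0.0019), it had the smallest SE of the regions named towards PFL. A region 268048 bp from Col3a1, which encodes a fibrillar collagen, stood at 6.30 to 7.56 in DFL and 10.9 to 15.4 in PFL, and 1 near Hey2, a target of Notch signalling, at 4.53 to 7.39 and 11.0 to 11.8. Regions nearest to Slc5a7, Ercc6l2, Tox and Ptprk had log2 differences of -1.02 to -1.04, and groups did not overlap in any. Here too the choice of the largest differences largely sets the separation. The call at Ptprk was lost without 542 DFL replicate 2, 542 PFL replicate 1 or 542 PFL replicate 2, where the log2 difference was -1.03, -0.92 and -0.92.

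**Figure D3:**
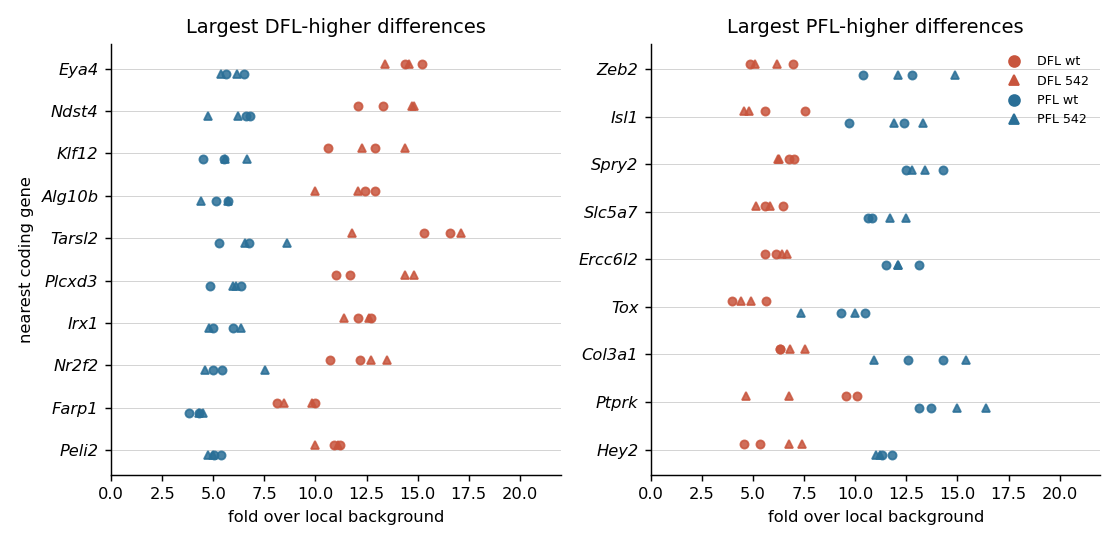
Fold over local background (x axis) in the 8 forelimb libraries for the 10 largest differences towards DFL (left) and 9 of the 10 largest towards PFL (right), each row named by the nearest coding gene, with DFL in red, PFL in blue, circles for wt and triangles for 542. In every row the 4 DFL points and the 4 PFL points do not overlap, as in the Eya4 row with 13.4 to 15.2 in DFL and 5.39 to 6.48 in PFL. The choice of rows largely sets this separation.

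Few pan-limb regions were called between genotypes. In the same fit, 2 members were higher in 542, where 0.0271% of all regions tested were, and 2 were lower, where 0.0426% of all regions tested were. These 4 are 0.074% of members. At an unadjusted p under 0.05 there were 1133 members (21.0%) and 3507 of all regions tested (13.6%). A region inside an intron of Gigyf2, 2644 bp from the start of Kcnj13 (chr1:87396791-87397587), a potassium channel gene, had folds of 10.1 and 11.8 in wt DFL, 5.48 and 4.53 in 542 DFL, 10.9 and 9.98 in wt PFL, and 6.73 and 4.99 in 542 PFL. All wt values were above all 542 values, with a log2 difference of 542 minus wt of -0.93 (SE 0.11, adjusted p = 0.0438).

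A region 61310 bp from Mpdz (chr4:81503460-81504420), the gene of a scaffold protein with PDZ domains, was also lower in 542, at 4.61 to 5.99 against 9.19 to 11.9 in wt (log2 difference -0.86, SE 0.09, adjusted p = 0.0438). Higher in 542 were a region 113303 bp from Has2 (chr15:56807349-56808216), which encodes a hyaluronan synthase, whose lowest 542 value was 8.59 and highest wt value 7.91, and a region in an intron of Tnr (chr1:159775002-159775599), the gene of tenascin-R, at 8.11 to 9.67 against 5.63 to 6.49. Their log2 differences were 0.82 and 0.62, each with an adjusted p of 0.0495. With depth-scaled tags in place of fold, 195 members were higher and 107 lower in 542, and whichever forelimb library was left out, both counts were 0 and the 4 calls were lost. The difference between DFL and PFL did not differ by genotype in any member by limma (0 of 5407 at an adjusted p under 0.05, and 0 under every alternative tried), while 695 members (12.9%) and 1923 of all regions tested (7.46%) had an unadjusted interaction p under 0.05.

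The HoxD locus itself, where allele 542 differs by design, held 4 members between 74 Mb and the limit at 75 Mb, singled out after their values were seen. The strongest, 197111 bp from the start of Lnpk (chr2:74380576-74381478), had folds of 9.55 to 12.9 in the 8 forelimb libraries. A region 39442 bp from Evx2 (chr2:74619141-74620654) had 4.52 to 6.25, and the Hoxd11 promoter (chr2:74681559-74682630) 4.04 to 5.97. On the side of the insertion, a region 100833 bp from Mtx2 (chr2:74926138-74926954) had 5.34 to 9.12. None was called between DFL and PFL or between genotypes. The native II1 element was not a member, since a region over it was in all 4 DFL lists and in 0 of 4 PFL lists, with folds of 7.74 and 10.0 in wt DFL and 6.01 and 6.03 in 542 DFL. Outside the forebrain lists, a weaker region over it was called in wt FB replicate 1, at 3.74. In the genome of 542 a read within II1 has 2 equal origins, which the mapping-quality filter can remove, and this was not tested.

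Motif letters were counted within 100 bp of the median summit for 22 short motifs. The TWIST E-box CATCTG was present in 30.3% of members, against 21.2% of all merged regions and 22.1% of forebrain-only regions. The TEAD letters GGAATG were in 21.4%, against 14.9% and 11.3%, and the RUNX letters TGTGGTT in 6.92%, against 4.79% and 3.39%. HOX13 letters were in 7.97%, against 4.79% and 3.26%. Other letters were rarer in members than in forebrain-only regions, with TAATTA in 6.75% and 26.9%, the SOX letters ACAATG in 7.60% and 19.2%, the GATA letters AGATAA in 3.33% and 12.3%, and the POU letters ATGCAAAT in 0.61% and 8.54%. The MEIS letters TGACAG stood at 14.1% in members and 22.6% in forebrain-only regions. The CTCF core was in 1.28% of members and 11.9% of regions in all 12 lists. Leaving promoters out changed the shares of members by little, as for the TWIST E-box at 30.6% against 22.3% in forebrain-only regions. Few members or forebrain-only regions were promoters, so these shares could hardly move. In regions of all 12 lists it raised the CTCF core from 11.9% to 23.3% and the TWIST E-box from 10.6% to 17.3%.

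Letters were then counted apart for members higher in DFL and members higher in PFL. HOX13 letters were in 70 of 470 members higher in DFL (14.9%), 21 of 392 higher in PFL (5.36%) and 7.48% of the other 4545. The homeobox letters TAATTA followed the same order, in 13.4%, 4.85% and 6.23%. The E-box CATCTG was rarer in members higher in DFL (22.8%), with like shares in those higher in PFL (31.1%) and the others (31.0%), and MEIS letters were in 11.1%, 15.3% and 14.3%. The E-box CAGCTG was in 21.7%, 30.1% and 24.0%, RUNX letters in 5.53%, 10.2% and 6.78%, and TEAD letters in 23.0%, 25.3% and 20.9%, so that the PFL side had the highest share of each. The same letters were in 15.2% (HOX13) and 16.2% (TAATTA) of the 2120 regions found in all 4 DFL lists and no other list, and in 4.11% and 2.98% of the 2046 found in all 4 PFL lists and no other. TWIST (CATCTG), TEAD and RUNX letters were in 31.2%, 22.1% and 8.65% of the regions of all 4 PFL lists and no other. In pan-limb regions they were in 30.3%, 21.4% and 6.92%, so that high shares of these letters were not particular to pan-limb regions. In the regions of all 4 DFL lists and no other these shares were all lower, with TEAD letters at 15.4% and RUNX at 4.95%. These shares were not tested.

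**Figure D4:**
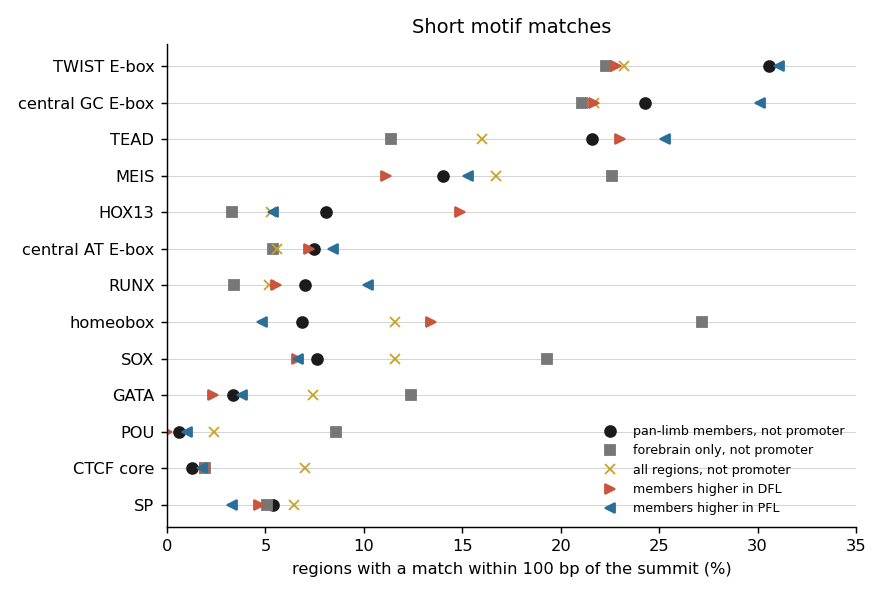
Share of regions (%, x axis) with a match within 100 bp of the summit for 13 motifs, with the E-boxes CAGCTG and CATATG named by their central letters. Black circles (pan-limb regions), grey squares (forebrain-only) and crosses (all regions) leave promoters out, and red and blue triangles are the members higher in DFL and in PFL, with HOX13 at 14.9% and 5.36%.

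Enhancer activity recorded outside this series was compared by position. RefSeq lists VISTA elements, DNA fragments chosen by their investigators and scored for LacZ staining in transgenic mouse embryos. The records read here name the tissue stained, and stage and limb part were not matched to the E12.5 forelimb. Of these elements 587 lie on the chromosomes used, 164 with limb and 157 with forebrain activity. The summit of 82 members (1.52%) lay in such an element, against 0.514% of all merged regions. Limb activity was recorded for 50 of the 82 (61.0%) and forebrain activity for 10 (12.2%), 5 of which were active in both. In forebrain-only regions it was 4 (5.71%) and 49 (70.0%) of 70, and in regions of all 12 lists 46 (38.0%) and 36 (29.8%) of 121.

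The strongest member in a limb element, chosen after its value was seen, was in mm703, over an exon of Vps13b (chr15:35532969-35533688), with staining in the limb of 6 of 6 embryos. Its fold was 19.2 and 16.2 in wt DFL, 18.6 and 17.0 in 542 DFL, 16.7 and 11.8 in wt PFL, and 13.3 and 13.9 in 542 PFL, and no forebrain region was called. Next came mm938, within both Ate1 and Fgfr2 by the annotation (limb in 8 of 9 embryos), and mm686, which stained limb in 13 of 13 and forebrain in 12 of 13 embryos, both with a mean fold of 12.1. At mm686 weak forebrain regions of 2.77 to 3.04 were called in 3 FB libraries. Of the 5 members in elements with forebrain and no limb activity, the region in mm419, in an intron of Frmd4a (forebrain in 6 of 12 embryos), had 8.94 to 12.2 in DFL and 4.95 to 6.68 in PFL. Its log2 difference was 0.85 (SE 0.15, adjusted p = 0.0132), and no forebrain region was called there at any rank.

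**Figure D5:**
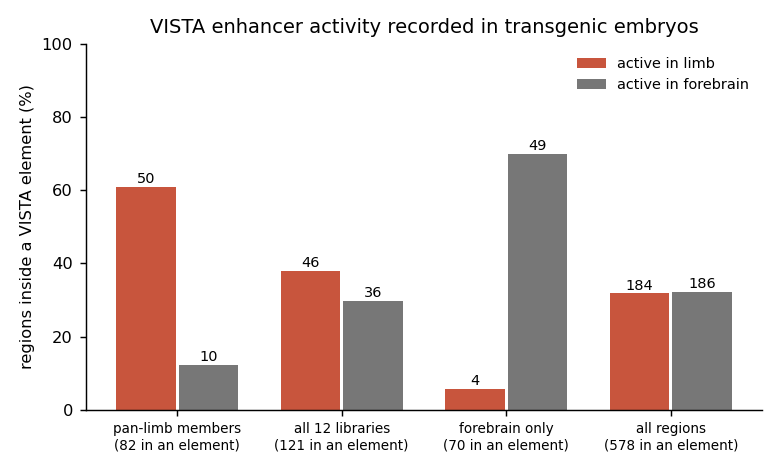
Share (%) of regions with a summit in a VISTA element whose element was active in limb (red) or forebrain (grey), with the number of regions above each bar, for pan-limb regions, regions in all 12 lists, forebrain-only regions and all regions. Among pan-limb regions 61.0% were in limb elements and 12.2% in forebrain elements.

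Each region was assigned to the coding gene with the nearest start, which is a label of position and no proof of a target. The 5407 members fell to 2992 of 20696 coding genes (14.5%), and 177 genes had 5 or more. Cdh11, a cadherin of mesenchymal cells, had 15 members, of which 1 was higher in DFL and 2 in PFL. Robo1, a receptor for Slit guidance signals, had 14 and Lrig3, a leucine-rich repeat membrane protein, 13. Adgrl3 had 11, and Pcdh18, 4930558K02Rik, Flrt2, Tenm3 and Slc10a2 had 10 each. Several of these genes lie in long intervals with many regions of every kind, as for Robo1 with 189 merged regions. The median distance from a member to the next was 80802 bp, and 474 members (8.77%) had another within 10 kb.

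Genes were then read by lists of known roles, some of which share genes. The counts higher in DFL or PFL in a list stand beside 8.69% and 7.25% of all members, and none of these counts was tested against them. In a list of 27 limb mesenchyme transcription factors, 17 genes (63.0%) had 1 or more, 45 members in all, and 48.4% of the regions in all 8 forelimb lists nearest to these genes were members, against 21.0% for all genes. That share was not particular to mesenchyme, and over the 15 lists it ran from 23.5% (forebrain factors) to 50.0% (blood and vessel cells). Tcf4 had 8, Hand2 had 7 and Osr1 had 6. The strongest was 213128 bp from Twist1, inside Hdac9 (chr12:34170347-34171146), with folds of 8.87 to 13.3 in DFL and 8.29 to 12.7 in PFL, overlapping ranges. Of the 45 members, 6 were higher in DFL and 1, the Zeb2 region above, in PFL, with a median log2 difference of 0.04. Proximal limb factors had members at 9 of 19 genes (15 members, 1 higher in DFL) and distal limb factors at 5 of 14 (13 members, 2 higher in DFL). Of those 13, 7 at Hand2 and 3 at Sall1 are also among the 45 of the mesenchyme list. The distal list included Hoxa13, whose single member was among those higher in DFL.

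Skeletal, tendon and matrix genes came next. Cartilage and joint genes had members at 21 of 29 (72.4%), with 50 members, 6 higher in DFL and 3 in PFL. The strongest was 149063 bp from Trps1, a zinc finger factor of growth plate cartilage (chr15:51038673-51039475). Its fold was 17.3 and 17.9 in wt DFL, 15.9 and 18.5 in 542 DFL, 6.43 and 6.48 in wt PFL, and 12.1 and 9.59 in 542 PFL. DFL values were all higher, and the log2 difference was 1.00 (SE 0.15, adjusted p = 0.00849). Tendon and connective tissue genes had members at 13 of 19 (35 members, 3 higher in DFL and 3 in PFL), led by an intron of Eya1 at 12.3 ± 1.41 (SD, n = 8). Extracellular matrix genes had members at 19 of 30 (48 members, 3 higher in DFL and 2 in PFL), and Col3a1, Fn1, Has2, Tnc and Vcan had 5 each.

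Signalling pathways were represented by ligands, receptors and inhibitors. In the Hedgehog pathway, which patterns the limb from its posterior margin, 7 of 13 genes had 26 members, 2 higher in DFL and 3 in PFL. The co-receptor gene Gas1 had 9, the strongest with folds of 15.2 to 17.5 in DFL and 12.7 to 15.7 in PFL, and the transcription factor gene Gli3 had 6. For the inhibitor Hhip, 2 of 4 members were higher in PFL. In the Fgf pathway, which drives outgrowth, 12 of 18 genes had 29 members (4 higher in DFL and 2 in PFL), among them 7 at the mesenchymal ligand gene Fgf10 and 5 at the receptor gene Fgfr2. The inhibitor genes Spry4 and Spry2 differed in direction, with a Spry4 member at 12.0 to 13.9 in DFL and 8.49 to 9.41 in PFL (log2 difference 0.49, SE 0.09, adjusted p = 0.0141) and the Spry2 member above higher in PFL.

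In the Wnt pathway 20 of 30 genes had 46 members, 5 higher in DFL and 2 in PFL, with 7 at Sfrp2, which encodes a secreted inhibitor, and 5 each at Dkk2, another inhibitor, and Rspo3, an enhancer of Wnt signals. Bmp and Tgf-beta genes had members at 13 of 27 (40 members, 3 higher in DFL and 2 in PFL), with 7 each at the ligand gene Inhba and the co-receptor gene Tgfbr3. The retinoic acid list had members at 9 of 13 genes (21 members, 1 higher in DFL), 6 of them at Dhrs3, a retinaldehyde reductase, and 4 at Aldh1a2, the enzyme that makes retinoic acid. An intron of the receptor gene Rarb held a member of 10.8 ± 0.954 (SD, n = 8), where weaker forebrain regions of 3.26 to 4.64 were called in all 4 FB libraries.

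Lists of other cell types in the tissue were read beside the 14.5% of all coding genes with a member. Muscle genes had members at 3 of 12 (Met, Myf6 and Pax3), limb ectoderm genes at 3 of 17 (En1, Sp8 and Trp63) and forebrain factors at 6 of 24 (Dlx1, Emx2, Lhx2, Lhx8, Pou3f3 and Sox2). Blood and vessel genes had members at 7 of 15, 16 in all, of which 4 were higher in DFL (nearest to Erg, Ptprc, Sox17 and Tek) and 0 in PFL, where 8.69% and 7.25% of all members were. Erg is also on the cartilage and joint list, and its members are counted in both. The summed fold at the starts of 4 blood and vessel markers (Tal1, Kdr, Cdh5 and Tie1) was 15.1 to 20.9 in DFL, 13.2 to 17.5 in PFL and 11.3 to 14.7 in FB. Of these, Cdh5 had no region at its start in any DFL library and Kdr had one in every library. For 4 muscle markers (Myf5, Myod1, Pax3 and Pax7) the sums were 7.21 to 15.2, 10.7 to 14.2 and 8.70 to 12.0, and for 5 ectoderm markers (Krt5, Krt14, Trp63, Epcam and Fgf8) 5.21 to 12.8, 8.91 to 13.1 and 5.19 to 7.31. The part of cell composition in these results was not tested.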

How the data were processed

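The deposited peak lists of 13 libraries were used as the authors made them. The authors trimmed reads with cutadapt, aligned them with Bowtie 2, filtered alignments by mapping quality, pairing and mitochondrial origin, removed duplicates with Picard, and called regions with MACS2 in each library without a control. The deposited fold is a ratio of tags at the summit plus 1 to local background plus 1. The deposited −log10 p and −log10 q values are those of the peak caller, and the deposited score, a form of the −log10 q, was not used. No normalization between libraries enters these values.

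Regions were ranked by −log10 q and then fold, and an overlap of 1 bp counted as presence. Tags were recovered as whole numbers from fold and −log10 p (tolerance 0.01), together with the local background, whose most common value gives an estimate of depth. Fits used limma 3.58.1 in R 4.3.3 on log2 fold with no pseudocount, since a fold is never 0, and were checked on simulated data. The threshold was an adjusted p of 0.05. With 2 pools per group, p-values rest on the spread between libraries that the terms of the fit leave, which limma moderates over all regions tested. Without an interaction term, this spread also holds any difference in the tissue effect between genotypes. Annotation was GENCODE M21, with sequences and VISTA elements from RefSeq (GRCm38). Motifs were searched on both strands in 201 bp, where the homeobox letters and the palindromic E-boxes read alike. Of the 22 motifs, those whose letters are not spelled out in the results were CTCF, PBX-HOX (TGATTNAT), AP-1 (TGANTCA), GLI (GACCACCC), NFI, LEF/TCF (ATCAAAG), ETS (CCGGAAG), SP (GGGCGG), RFX, EBF and FOX (TGTTTAC).

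Members, gene lists and tests were chosen with earlier results of these data known. Named members were the 10 highest by mean fold, the 10 largest differences per direction between DFL and PFL, all called between genotypes, the 10 strongest promoters, the 10 genes with most members, the strongest members of each of 15 gene lists and the 3 nearest each side of the list border. Alternatives varied list length, ranking, overlap, centring, the value fitted, missing values, the replicate block, the variance settings and the libraries included. A member and a marker named by these rules are not reported here.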

Additional observations from a re-analysis of the deposited data

Results flagged for a closer look

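Single libraries that stood apart from the other 3 of their tissue were sought in the named members by Dixon's criterion for the gap over the range, which flags about 1 group in 20 by chance. Of 180 groups tested, 4 were beyond it, a smaller share than chance gives. The Ccdc68 promoter had a fold of 15.7 in wt PFL replicate 1 against 8.22 to 9.19 in the other PFL libraries. The region nearest to Fgf9 had 17.0 in wt DFL replicate 1 against 13.1 to 13.7 in the other DFL libraries. The region nearest to Dlx1, in an intron of Metap1d, had 9.81 in wt DFL replicate 2 against 6.95 to 7.37. The region nearest to Evx2 had 6.25 in 542 DFL replicate 1 against 5.79 to 5.83. None of these regions was called between tissues or genotypes.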

How the results depend on the processing

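The number of pan-limb regions was 1498 with the 20000 strongest regions per library, 2810 with 30000 and 9389 with all deposited regions, and 4999 to 5446 under the other settings that kept all libraries. Leaving out 1 library gave 5525 to 5963. Of the members, 2790 were in the 20000 strongest regions of the earlier wt DFL library. Members higher in DFL numbered 1034, and higher in PFL 965, with depth-scaled recovered tags in place of fold. Without centring 254 were higher in PFL. Leaving out 1 forelimb library gave 253 to 312 and 225 to 265. The remaining settings kept both counts within 1.5 times. Between genotypes, members higher and lower in 542 numbered 195 and 107 with recovered tags, 0 and 5 without centring, 9 and 8 with trend and robust settings, and 0 and 1 with missing values left out. The count higher was 1 with quantile normalization and 1 with log2(fold + 1), and the count lower was 4 with the earlier library added. Both were 0 without any 1 forelimb library (0 to 0). The causes were not tested.

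Same-numbered replicates did not deviate together (6 correlations of -0.016 to 0.013), so no shift shared by replicate number was seen. This cannot show whether same-numbered libraries came from the same embryos. With the replicate number as a block, 416 and 344 members were higher in DFL and in PFL, and 0 and 0 were higher and lower in 542. Of the 320 alternative fits of the 20 members named for DFL and PFL, 317 kept the call and 3, all at Ptprk, lost it. Of the 64 for the 4 members named for genotype, 45 lost the call, and none in either set reversed. At 2 replicates per group and 37.5 to 54.5 M tags, small differences may not be detectable.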
